A study of Homo sapiens with 6 samples.

Results

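The histone genes of LX2 cells are described here after knockdown of SHMT2. They were taken by name from the deposited table: protein-coding genes whose symbols follow the histone patterns HIST1 to HIST4, H1F, H2AF and H3F3, under the older names the table uses. The rule found 87 genes among 60623 in the table. Of these, 71 carried HIST names and are called replication-dependent, and 16 were variant or replacement histones. LX2 is an established human line of hepatic stellate cells, the liver cells that lay down collagen in fibrosis. All libraries came from wild-type LX2 cells kept in 2% serum and collected 36 h after transfection, 3 with an siRNA against SHMT2 (siSHMT2) and 3 with a control siRNA (siNC). The siRNA sequences are not given in the sources used here. Nothing in the labels ties replicates to separate cultures, so a p-value here reflects the spread among the libraries alone, and that spread may be technical. The study set knockdown against control to see which transcripts differ.

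Histones package DNA: pairs of H2A, H2B, H3 and H4 form the nucleosome core, and H1 binds the DNA that links nucleosomes. Replication-dependent histone genes lie in clusters, have no introns as a rule, and are made mainly in S phase, when new DNA needs new nucleosomes. Their messages typically end in a conserved stem-loop instead of a poly(A) tail, which is bound by the protein SLBP, and some members also make polyadenylated forms. Variant genes are scattered, are made outside S phase as well, have poly(A) tails, and replace the canonical proteins at particular places on chromatin. Libraries were made with a SMARTer mRNA kit per the labels. How far messages without a poly(A) tail entered these libraries was not tested.

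The stem-loop was searched for downstream of the stop codon in GENCODE 29 transcripts (GRCh38). It was found in 33 of 87 histone genes and in 41 of 19684 coding genes searched (0.208%), 8 of which were not histone genes. The 33 matches had 7 distinct sequences. The sequences below are those of histone genes that the results turn on, written as DNA on the gene's strand, with the 6 bases of each stem arm in capitals and the 4 bases of the loop in lower case.
HIST2H2BE, chr1:149886188-149886203, minus strand: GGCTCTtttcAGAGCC
HIST1H2BD, chr6:26158587-26158602, plus strand: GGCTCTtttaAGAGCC
HIST1H4H, chr6:26285131-26285146, minus strand: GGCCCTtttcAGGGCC
HIST1H4I, chr6:27139654-27139669, plus strand: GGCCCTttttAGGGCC
H2AFX, chr11:119094898-119094913, minus strand: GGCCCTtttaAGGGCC
The sequence shown for HIST2H2BE was the most common, in 17 genes of the H2A, H2B and H3 families. The sequence of HIST1H2BD was shared by 5 genes, that of HIST1H4H by 5 H4 genes and that of HIST1H4I by 3 H4 genes. H2AFX was the 1 variant gene with a match. The annotated models differed in where they end: 32 replication-dependent genes had no 3′ UTR annotated, 25 had a model running more than 50 bases past the stem-loop, and 7 had models with the stem-loop that all ended within 50 bases of it. HIST1H1C and HIST1H2BK, the most abundant replication-dependent genes, were among the 32 without one, so their FPKM rests on reads over coding bases.

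Promoter windows of 300 bases, 250 before to 50 after the start, were taken from RefSeq (GRCh38.p14) for 78 of the 87 genes. They were searched on both strands for 3 motifs. CCAAT is the core of the site bound by NF-Y. TATAAA is the sequence of a TATA box, and a match was counted anywhere in the window. TTTGCAT is part of the octamer bound by OCT1, known from H2B promoters. No window held overlapping matches of different motifs. Windows are placed on RefSeq's starts, which can differ from the starts in the deposited table. The 4 windows below belong to 3 genes that were lower in siSHMT2 cells and to HIST1H2BD, whose siSHMT2 values lay above its siNC values, with motif matches in capitals.
HIST2H2BE, chr1:149886633-149886932, minus strand: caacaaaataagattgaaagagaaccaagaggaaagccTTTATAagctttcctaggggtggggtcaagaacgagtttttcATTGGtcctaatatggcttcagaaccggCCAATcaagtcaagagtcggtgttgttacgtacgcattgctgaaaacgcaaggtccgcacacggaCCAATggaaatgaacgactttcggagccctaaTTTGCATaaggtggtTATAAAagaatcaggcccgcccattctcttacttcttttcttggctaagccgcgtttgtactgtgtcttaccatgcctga
HIST1H2BO, chr6:27893175-27893474, plus strand: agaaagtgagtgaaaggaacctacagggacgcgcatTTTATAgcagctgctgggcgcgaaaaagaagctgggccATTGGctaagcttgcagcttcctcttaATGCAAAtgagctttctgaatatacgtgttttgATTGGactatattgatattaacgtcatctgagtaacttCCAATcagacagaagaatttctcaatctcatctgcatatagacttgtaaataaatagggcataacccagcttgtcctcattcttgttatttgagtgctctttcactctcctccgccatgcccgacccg
HIST1H4I, chr6:27139032-27139331, plus strand: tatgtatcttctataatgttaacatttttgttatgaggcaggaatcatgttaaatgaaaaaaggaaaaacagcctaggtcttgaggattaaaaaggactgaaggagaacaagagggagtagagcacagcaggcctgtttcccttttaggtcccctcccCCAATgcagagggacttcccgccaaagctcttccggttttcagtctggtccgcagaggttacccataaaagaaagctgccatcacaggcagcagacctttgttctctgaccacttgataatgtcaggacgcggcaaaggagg
HIST1H2BD, chr6:26157871-26158170, plus strand: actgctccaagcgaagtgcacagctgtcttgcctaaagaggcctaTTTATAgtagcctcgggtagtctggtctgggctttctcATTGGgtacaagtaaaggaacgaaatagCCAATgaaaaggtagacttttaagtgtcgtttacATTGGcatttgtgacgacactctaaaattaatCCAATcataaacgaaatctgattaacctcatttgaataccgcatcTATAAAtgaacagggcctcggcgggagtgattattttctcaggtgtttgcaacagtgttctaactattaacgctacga
CCAAT was present in 54 of 64 replication-dependent windows (84.4%), in 11 of 14 variant windows (78.6%) and in 35.7% of 27305 windows of all genes. TATAAA was present in 42 of 64 (65.6%) against 11.95% of all windows. TTTGCAT was present in 26 of 64 (40.6%) against 4.51% of all windows. Its matches lay in 14 of 18 H2B windows, 11 of 14 H2A windows and 1 of 13 H3 windows. There were 0 in 13 H4 and 0 in 6 H1 windows. The 1 H3 match was in HIST1H3D. Its window (chr6:26199244-26199543) is the same as that of HIST1H2AD, so 1 sequence was counted in both families. In the windows shown, HIST2H2BE and HIST1H2BO held all 3 motifs, HIST1H2BD held CCAAT and TATAAA, and HIST1H4I held CCAAT. In HIST1H2BO the TATAAA and TTTGCAT matches were on the opposite strand (TTTATA and ATGCAAA), with TTTATA far upstream of the start.

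The deposited values are FPKM, that is, read fragments corrected for the length of the gene and the depth of the library. They corresponded to between 14722344 and 15669139 reads per library. SHMT2, the mitochondrial serine hydroxymethyltransferase and target of the siRNA, had 2.25, 2.101 and 2.42 FPKM in the siSHMT2 libraries, against 40.8, 56.3 and 45.1 FPKM in the siNC libraries. It fell to 4.77% of the siNC mean (log2 fold change -3.88, SE 0.132, limma adjusted p = 2.08e-05; two-sided exact permutation p = 0.1, the smallest that 3 against 3 allows). The library siNC replicate 2 stood apart in having 18723 genes above 0, against 20559 to 21136 in the other libraries, so counts are also given without it. Of 13 stellate and mesenchymal markers, 10 had a mean of at least 1 FPKM, ACTA2 (0.605 FPKM) and DES (0.0993 FPKM) lay below it and LRAT was at 0. Their summed FPKM was 1563 to 1804 in siSHMT2 cells and 2054 to 3026 in siNC cells, and the part of this shift in the histone results was not tested. The markers did not shift as a set. Among those above 1 FPKM, VIM, COL6A1, COL6A2 and THY1 were lower in siSHMT2 cells without overlap. For COL1A1, COL1A2, COL3A1, PDGFRB, SPARC and TIMP1 the groups overlapped. The 7 hepatocyte markers summed to 0.299 to 0.454 FPKM in siSHMT2 cells and 0.330 to 1.36 FPKM in siNC cells, and the endothelial markers to at most 0.626 FPKM. The 6 leukocyte and macrophage markers summed to 13.2 to 15.1 FPKM in siSHMT2 cells and 14.3 to 19.2 FPKM in siNC cells. Nearly all of this was CD14 (mean 15.3 FPKM), while CSF1R averaged 0.363 FPKM, PTPRC was near 0 and CD163, ITGAM and LYZ were at 0.

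The summed level of histone transcripts was lower in every siSHMT2 library than in every siNC library. The 87 genes together gave 1588, 1512 and 1716 in the siSHMT2 libraries, against 1973, 2346 and 2319 in the siNC libraries, as summed FPKM. The siSHMT2 sum averaged 72.5% of the siNC sum, and 77.6% when both were rescaled to TPM. In these bulk samples fewer cells making a transcript and less of it per cell cannot be told apart.

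Replication-dependent genes summed to 673, 641 and 747 in the siSHMT2 libraries, against 805, 954 and 1006 in the siNC libraries, 74.6% of the siNC mean (79.7% as TPM). A few members carried this sum: HIST1H1C alone held between 45.2% and 56.4% of it in each library, and HIST1H1C with HIST1H2BK held 75.7% to 80.0%. Without HIST1H1C the sum was 78.2% of siNC (83.1% as TPM). On TPM that sum was 1078 in siSHMT2 replicate 2 and 1069 in siNC replicate 2, so the groups overlapped. Variant genes summed to 914, 871 and 968 in the siSHMT2 libraries, against 1168, 1392 and 1312 in the siNC libraries, 71.1% of the siNC mean (76.0% as TPM). H2AFX made up 30.1% to 35.8% of the variant sum, which stood at 73.6% of siNC without it (78.6% as TPM).

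By family, the variant linker histones had the lowest ratio. Their summed FPKM was 149, 141 and 193 in the siSHMT2 libraries, against 253, 342 and 372 in the siNC libraries, which is 49.9% of siNC. The H2A variants stood at 76.0% and the H3 variants at 91.2%. As TPM the variant ratios were 53.5% for H1, 81.2% for H2A and 96.9% for H3, and the H3 sums overlapped between groups. Among replication-dependent genes, the siSHMT2 sums were 71.3% of siNC for H1, 70.3% for H2A, 83.3% for H2B, 68.9% for H3 and 65.8% for H4. As TPM these were 76.7%, 74.8%, 88.1%, 73.4% and 70.5%, in the same order. For H2A, H3 and H4 the sums did not overlap between groups on either scale. For H1 on FPKM siSHMT2 replicate 3 lay above siNC replicate 1, while on TPM the H1 groups did not overlap. For H2B the siSHMT2 libraries at 243 to 244 FPKM all lay above siNC replicate 2 at 241 FPKM.

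**Figure D1:**
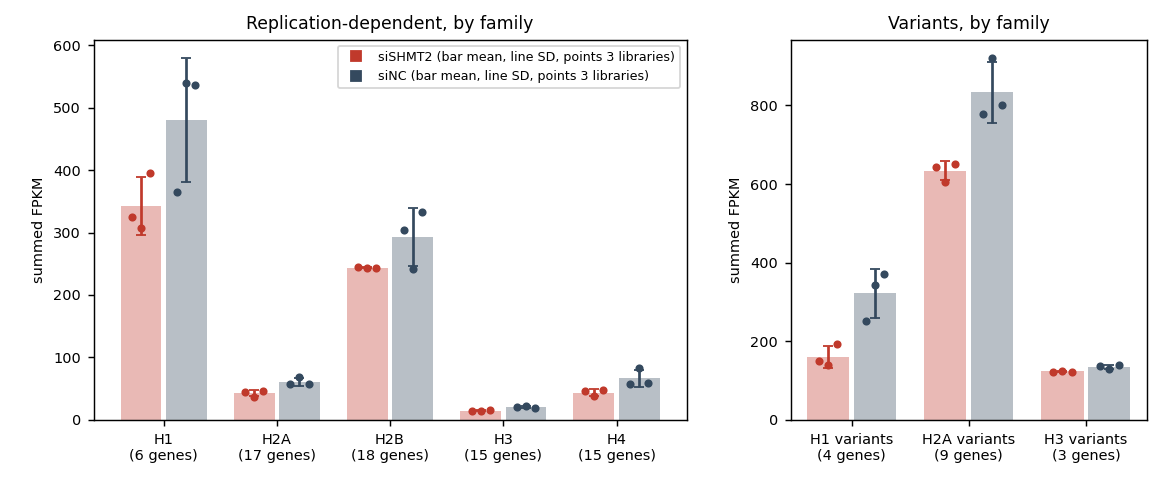
Summed FPKM (vertical axes, linear from 0) of replication-dependent histone genes by family (left) and of variant genes by family (right), with siSHMT2 left of siNC in each pair; bars are means, lines are SD and points are the 3 libraries of each group. The variant H1 sum lies at 141 to 193 FPKM in siSHMT2 cells and 253 to 372 FPKM in siNC cells, and the H2B sums overlap.

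Of the 71 replication-dependent genes, 9 had no read in any library, and 34 had reads but a mean under 1 FPKM over the 6 libraries. The other 28 were tested with limma on log2(FPKM + 1). Among those with no read, HIST1H2AK, HIST1H2AM, HIST1H3D and HIST1H2AD share most or all exonic bases with another gene. A count of 0 there may not mean that no transcript was made. A gene was called at an adjusted p under 0.05 over all 10865 genes tested, and fold changes are siSHMT2 minus siNC on that log2 scale, on which changes of low genes come out too small. The test called 9 replication-dependent genes lower (32.1% of those tested), beside 9.85% of all genes, and 0 higher, beside 6.07% of all genes. At an unadjusted p under 0.05, 14 were lower and 1 was higher, and limma voom on recovered reads called 8 lower and 0 higher. The shares of all genes under these settings are not given here, so these counts cannot be set beside them. On FPKM, groups did not overlap for 13 genes lower in siSHMT2 cells, beside 18.6% of all genes, and for 1 gene higher, beside 17.9%. The median log2 fold change was -0.41, beside 0.02 for all genes tested, and 26 of 28 values were negative. Of the 28, 4 genes had a siSHMT2 mean under 1 FPKM and passed through the siNC group (HIST1H2BL, HIST1H2AG, HIST1H4C and HIST1H3G), and the 9 calls were among the other 24. The members were chosen with results of these data known, so no test of the group was made.

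The count of 9 depended on the libraries used. It was 3, 4 and 2 without siSHMT2 replicates 1, 2 and 3, and 11, 8 and 5 without siNC replicates 1, 2 and 3. With siNC replicate 3 left out 1 gene, HIST1H2BD, was called higher. The count of lower genes was 2 with no filter on low values, 3 with a filter at 5 FPKM and 17 with array weights. Over all genes the 6 fits that left out 1 library called between 502 and 1124 genes lower, against 1070 with every library. On TPM the split of calls over all genes was 686 higher and 620 lower, against 659 higher and 1070 lower on FPKM. Calls lost on TPM included those of HIST1H2AC, HIST2H2AC and HIST1H4H, and the count of histone genes lower on TPM is not given here.

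Of the 16 variant genes, 4 had no read, 2 had reads but a mean under 1 FPKM, and 10 were tested. Of these 3 were called lower, beside 9.85% of all genes, and 1 higher, beside 6.07%, with a median log2 fold change of -0.15. On FPKM, groups did not overlap for 6 genes lower in siSHMT2 cells, beside 18.6% of all genes, and for 1 gene higher, beside 17.9%. The count of lower genes was 0, 1 and 2 without siSHMT2 replicates 1, 2 and 3, and 3, 1 and 1 without siNC replicates 1, 2 and 3. H2AFY2 was called higher in each of these 6 fits.

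**Figure D2:**
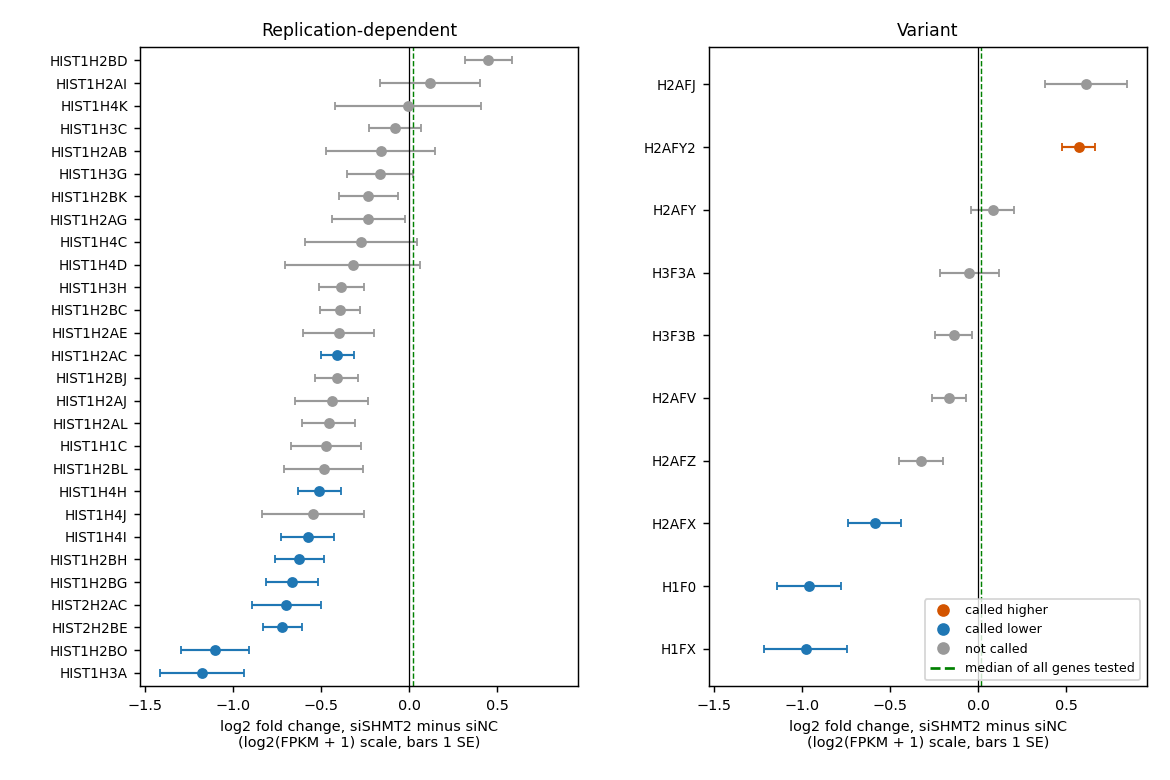
Log2 fold changes, siSHMT2 minus siNC on the log2(FPKM + 1) scale (horizontal axes), of the 28 replication-dependent (left) and 10 variant (right) genes tested; bars are 1 SE, colours give the call at a limma adjusted p under 0.05, and the dashed line is the median of all genes tested (0.02). The 9 lower replication-dependent calls run from HIST1H3A at -1.18 to HIST1H2AC at -0.41, and among variants H2AFY2 at 0.57 is the 1 call above 0.

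Both tested variant linker histones were called lower, beside 9.85% of all genes. The 1 tested canonical linker histone, HIST1H1C, was not called, though its log2 fold change was also negative (-0.47). H1FX, which encodes the variant H1x (chr3:129314771-129316286, minus strand), had 119, 108 and 161 FPKM in the siSHMT2 libraries, against 182, 296 and 297 FPKM in the siNC libraries. Every siSHMT2 value lay below every siNC value, and siSHMT2 replicate 3 was the highest of its group. It fell to 50.04% of siNC (log2 fold change -0.98, SE 0.236, limma adjusted p = 0.0289). H1FX shares 345 exonic bases with the antisense gene H1FX-AS1, and strand use in counting is not given, so reads of the pair cannot be told apart. The call was lost without siSHMT2 replicates 1 and 2 (adjusted p = 0.109 and 0.110) and without siNC replicates 2 and 3 (0.0695 and 0.0881). Of 15 alternative fits, 10 called H1FX lower, with a limma adjusted p of up to 0.118.

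H1F0, the H1.0 histone that accumulates in cells that have stopped dividing (chr22:37805093-37807436, plus strand), had 30.5, 32.5 and 32.2 FPKM in the siSHMT2 libraries, against 70.8, 46.5 and 75.1 FPKM in the siNC libraries. All siSHMT2 values lay close together and below the lowest siNC value, which was replicate 2. It fell to 49.5% of siNC (log2 fold change -0.96, SE 0.181, limma adjusted p = 0.0113) and kept its call in 5 of 6 fits that left out 1 library, missing it without siSHMT2 replicate 1 (adjusted p = 0.0554). HIST1H1C, the canonical linker histone H1.2 (chr6:26055787-26056428, minus strand) and the most abundant replication-dependent gene per length, had 323, 307 and 393 FPKM in the siSHMT2 libraries, against 364, 538 and 535 FPKM in the siNC libraries. Here siSHMT2 replicate 3 lay above siNC replicate 1, and the difference was not called (log2 fold change -0.47, SE 0.198, limma adjusted p = 0.152). Without siNC replicate 1 it was called lower (log2 fold change -0.66, adjusted p = 0.0263). The other 5 canonical H1 genes had a mean below 1 FPKM over the 6 libraries and were not tested, from 3 reads in all for HIST1H1A to 54 for HIST1H1E.

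Among replication-dependent H2A genes 2 of 8 tested were called lower, beside 9.85% of all genes. HIST1H2AC (chr6:26124145-26139116, plus strand) had 19.8, 19.1 and 17.9 FPKM in the siSHMT2 libraries, against 25.7, 25.1 and 25.6 FPKM in the siNC libraries. The siNC values were almost equal and every siSHMT2 value lay below them. It fell by 0.41 on the log2 scale (SE 0.0934, limma adjusted p = 0.0237). The call was lost on TPM (adjusted p = 0.146), on FPKM from read sums (0.0768), without each siSHMT2 library in turn (0.0975, 0.0941 and 0.125) and without siNC replicate 3 (0.0590). HIST1H2AC was called in 8 of 15 alternative fits. HIST2H2AC, in the smaller cluster on chromosome 1 (chr1:149886975-149887364, plus strand), had 8.16, 6.03 and 8.27 FPKM in the siSHMT2 libraries, against 13.2, 16.3 and 9.45 FPKM in the siNC libraries, from 141 reads in siSHMT2 and 240 in siNC cells in all. The groups did not overlap, and siNC replicate 3 was close to the highest siSHMT2 value. Its fall of 0.70 (SE 0.196, limma adjusted p = 0.0483) was the call nearest the threshold. It was lost without each siSHMT2 library (0.106, 0.160 and 0.0931) and without siNC replicates 1 and 2 (0.0848 and 0.0965). It was also lost on TPM (0.0726), on FPKM from read sums (0.0568) and by voom (0.0947). No more than 3 of 15 alternative fits called HIST2H2AC, and the limma adjusted p reached 0.171.

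The other 6 tested H2A genes were not called. HIST1H2AE had 6.37, 3.79 and 5.84 FPKM in the siSHMT2 libraries, against 5.502, 8.41 and 8.11 FPKM in the siNC libraries (log2 fold change -0.40, SE 0.201, limma adjusted p = 0.229). HIST1H2AL, with 32 reads in siSHMT2 and 50 in siNC cells, did not overlap between groups (log2 fold change -0.46, SE 0.152, limma adjusted p = 0.0812). The log2 fold change was -0.44 for HIST1H2AJ, -0.23 for HIST1H2AG, -0.16 for HIST1H2AB and 0.12 for HIST1H2AI. In these 4 genes the groups overlapped, and HIST1H2AB and HIST1H2AI changed sign with the library left out.

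The H2A variants were split in direction, with H2AFX called lower and H2AFY2 called higher. H2AFX encodes H2A.X, which is phosphorylated at DNA double-strand breaks (chr11:119093854-119095467, minus strand), and it was the variant with the highest FPKM. It had 299.5, 262 and 291 FPKM in the siSHMT2 libraries, against 381, 499 and 409 FPKM in the siNC libraries. All siSHMT2 libraries lay below all siNC libraries, of which replicate 2 was the highest. It fell to 66.1% of siNC (log2 fold change -0.59, SE 0.153, limma adjusted p = 0.0378), a call kept without siNC replicate 1 and lost without siSHMT2 replicates 1, 2 and 3 (adjusted p = 0.119, 0.154 and 0.125) and siNC replicates 2 and 3 (0.0519 and 0.0758). Only 8 of 15 alternative fits called H2AFX lower.

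H2AFY2 encodes macroH2A2, an H2A with a large macro domain found on silent chromatin (chr10:70052846-70112282, plus strand). It had 11.9, 12.5 and 13.2 FPKM in the siSHMT2 libraries, against 7.69, 8.07 and 8.52 FPKM in the siNC libraries. Every siSHMT2 library lay above every siNC library, with little spread within either group. It rose to 155% of siNC (log2 fold change 0.57, SE 0.0925, limma adjusted p = 0.00609) and was called in all 15 alternative fits, with log2 fold changes from 0.48 to 0.70. H2AFY, its relative macroH2A1, had 14.2, 14.6 and 13.5 FPKM in the siSHMT2 libraries, against 14.3, 14.7 and 11.2 FPKM in the siNC libraries (log2 fold change 0.08, SE 0.121, limma adjusted p = 0.695), with overlapping groups. H2AFY shares 4968 exonic bases with C5orf66 on the opposite strand.

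H2A.Z is encoded by H2AFZ and H2AFV and marks the nucleosomes beside active promoters. H2AFZ had 256, 259 and 267 FPKM in the siSHMT2 libraries, against 326, 346 and 308 FPKM in the siNC libraries. The groups did not overlap, yet the difference was not called (log2 fold change -0.32, SE 0.124, limma adjusted p = 0.124). H2AFV had 30.3, 31.6 and 30.6 FPKM in the siSHMT2 libraries, against 34.6, 32.9 and 36.7 FPKM in the siNC libraries, again without overlap and not called (log2 fold change -0.17, SE 0.0981, limma adjusted p = 0.309). H2AFJ, the H2A.J variant known to accumulate in senescent human fibroblasts, had 30.4, 26.8 and 37.1 FPKM in the siSHMT2 libraries, against 13.9, 20.9 and 27.4 FPKM in the siNC libraries. Its groups overlapped through siSHMT2 replicate 2 and siNC replicate 3 (log2 fold change 0.61, SE 0.233, limma adjusted p = 0.122), and it was called higher on TPM (log2 fold change 0.72, adjusted p = 0.0397).

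H2B was the family with the most calls, 4 of 9 tested genes lower, beside 9.85% of all genes. HIST2H2BE (chr1:149884459-149886652, minus strand) had 3.497, 2.56 and 2.88 FPKM in the siSHMT2 libraries, against 5.47, 5.63 and 5.502 FPKM in the siNC libraries. The siNC values differed little and all lay above the siSHMT2 values. It fell to 53.8% of siNC (log2 fold change -0.72, SE 0.110, limma adjusted p = 0.00465) and was called in all 14 alternative fits that tested it. HIST1H2BO (chr6:27893463-27893843, plus strand) had 1.96, 1.74 and 3.32 FPKM in the siSHMT2 libraries, against 4.95, 6.16 and 7.17 FPKM in the siNC libraries, from 12, 11 and 20 reads in the siSHMT2 libraries, against 33, 34 and 43 reads in the siNC libraries. The highest siSHMT2 library lay below the lowest siNC library. It fell to 38.4% of siNC (log2 fold change -1.10, SE 0.193, limma adjusted p = 0.0083), a call kept in all 6 fits that left out 1 library.

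HIST1H2BG (chr6:26215159-26216692, minus strand) had 1.34, 1.77 and 1.69 FPKM in the siSHMT2 libraries, against 2.38, 3.69 and 3.396 FPKM in the siNC libraries. HIST1H2BH (chr6:26251651-26253710, plus strand) had 1.97, 2.46 and 1.904 FPKM in the siSHMT2 libraries, against 3.08, 4.62 and 3.76 FPKM in the siNC libraries. In both genes all siSHMT2 libraries lay below all siNC libraries. HIST1H2BG fell by 0.67 (SE 0.148, limma adjusted p = 0.0213) and HIST1H2BH by 0.62 (SE 0.142, limma adjusted p = 0.023). The call of HIST1H2BG was lost without siSHMT2 replicates 1, 2 and 3 (adjusted p = 0.0922, 0.0559 and 0.0642) and siNC replicate 3 (0.0676). That of HIST1H2BH was lost without siSHMT2 replicates 1 and 3 (0.0950 and 0.0889) and siNC replicate 3 (0.0631). Of 14 alternative fits that tested them, 9 called HIST1H2BG and 10 called HIST1H2BH.

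The other 5 H2B genes were not called, and they include the one with the highest level. HIST1H2BK (chr6:27146418-27146798, minus strand) had 202, 198 and 196 FPKM in the siSHMT2 libraries, against 256, 184 and 270.5 FPKM in the siNC libraries (log2 fold change -0.23, SE 0.168, limma adjusted p = 0.404). Its siSHMT2 values were within 6 FPKM of each other, and siNC replicate 2 lay below them while the other two siNC libraries lay above. HIST1H2BD had 18.1, 18.6 and 19.4 FPKM in the siSHMT2 libraries, against 10.96, 14.1 and 15.6 FPKM in the siNC libraries. It was the 1 replication-dependent gene whose siSHMT2 libraries all lay above the siNC libraries (log2 fold change 0.45, SE 0.134, limma adjusted p = 0.0603). On TPM it was called higher (log2 fold change 0.56, adjusted p = 0.0216), as it was on FPKM from read sums (0.52, adjusted p = 0.0217). HIST1H2BJ had 12.8, 13.4 and 13.8 FPKM in the siSHMT2 libraries, against 15.3, 18.5 and 20.9 FPKM in the siNC libraries, without overlap and with every siSHMT2 value below (log2 fold change -0.41, SE 0.125, limma adjusted p = 0.0617). Without siNC replicate 1 it was called lower (adjusted p = 0.0158). HIST1H2BC did not overlap either (log2 fold change -0.39, SE 0.114, limma adjusted p = 0.0543), and HIST1H2BL did (log2 fold change -0.49, SE 0.225, limma adjusted p = 0.195).

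Among H3 genes 1 of 4 tested replication-dependent members was called lower, beside 9.85% of all genes. HIST1H3A (chr6:26020490-26020900, plus strand) had 0.455, 1.91 and 0.769 FPKM in the siSHMT2 libraries, against 3.199, 3.86 and 3.25 FPKM in the siNC libraries, from 3, 13 and 5 reads in the siSHMT2 libraries, against 23, 23 and 21 reads in the siNC libraries. The siNC values lay close together, while the siSHMT2 values varied more and all lay below them. It had the largest fall of any histone gene tested, to 30.4% of siNC (log2 fold change -1.18, SE 0.238, limma adjusted p = 0.0151). The call was lost without siSHMT2 replicate 3 (adjusted p = 0.0576). HIST1H3A was called in 12 of 14 alternative fits that tested it, with a limma adjusted p of up to 0.0823. HIST1H3H had 3.88, 5.41 and 5.37 FPKM in the siSHMT2 libraries, against 6.98, 6.75 and 6.21 FPKM in the siNC libraries, without overlap and not called (log2 fold change -0.39, SE 0.128, limma adjusted p = 0.0805). HIST1H3C at -0.08 and HIST1H3G at -0.17 on the log2 scale overlapped between groups, and HIST1H3C changed sign with the library left out.

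H3.3, the replacement histone deposited outside S phase, is encoded by H3F3A and H3F3B, which give the same protein from different messages. H3F3B had 104, 104 and 105 FPKM in the siSHMT2 libraries, against 112, 113 and 119.7 FPKM in the siNC libraries. Its groups did not overlap on FPKM, at 90.7% of siNC, and it was not called (log2 fold change -0.14, SE 0.107, limma adjusted p = 0.431). The H3 variants summed as TPM did overlap between groups. H3F3A had 18.3, 20.3 and 17.2 FPKM in the siSHMT2 libraries, against 24.4, 15.1 and 19.3 FPKM in the siNC libraries (log2 fold change -0.05, SE 0.168, limma adjusted p = 0.873). Its groups overlapped, and its sign turned on TPM (0.041) and on FPKM from read sums (0.023). Reads of H3F3A may be shared with its processed copy H3F3AP4, which had 19.9, 22.9 and 16.9 FPKM in the siSHMT2 libraries, against 26.3, 17.1 and 20.6 FPKM in the siNC libraries.

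H4 genes encode nearly the same protein throughout the clusters, and 2 of 6 tested members were called lower, beside 9.85% of all genes. HIST1H4I (chr6:27138588-27139881, plus strand), by far the most abundant of them per length, had 36.1, 31.7 and 36.1 FPKM in the siSHMT2 libraries, against 47.0, 64.7 and 46.4 FPKM in the siNC libraries. All siSHMT2 values lay below the siNC values, of which replicate 2 was the highest. It fell to 65.7% of siNC (log2 fold change -0.58, SE 0.151, limma adjusted p = 0.0385), a call lost without siSHMT2 replicates 1, 2 and 3 (adjusted p = 0.116, 0.142 and 0.105) and siNC replicate 3 (0.0525). HIST1H4H (chr6:26277609-26285638, minus strand) had 2.595, 2.398 and 2.08 FPKM in the siSHMT2 libraries, against 3.51, 4.47 and 3.41 FPKM in the siNC libraries, also without overlap. It fell by 0.51 on the log2 scale (SE 0.121, limma adjusted p = 0.0274), which was lost without siSHMT2 replicates 1, 2 and 3 (0.0698, 0.0879 and 0.108) and on TPM (0.0836). Among the alternative fits, 9 of 15 called HIST1H4I and 8 of 14 called HIST1H4H. The other 4 were HIST1H4C, HIST1H4D, HIST1H4J and HIST1H4K, whose groups overlapped and whose log2 fold changes ran from -0.55 in HIST1H4J to -0.01 in HIST1H4K. Each rested on 47 to 66 reads over all 6 libraries, and HIST1H4D and HIST1H4K changed sign with the library left out.

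**Figure D3:**
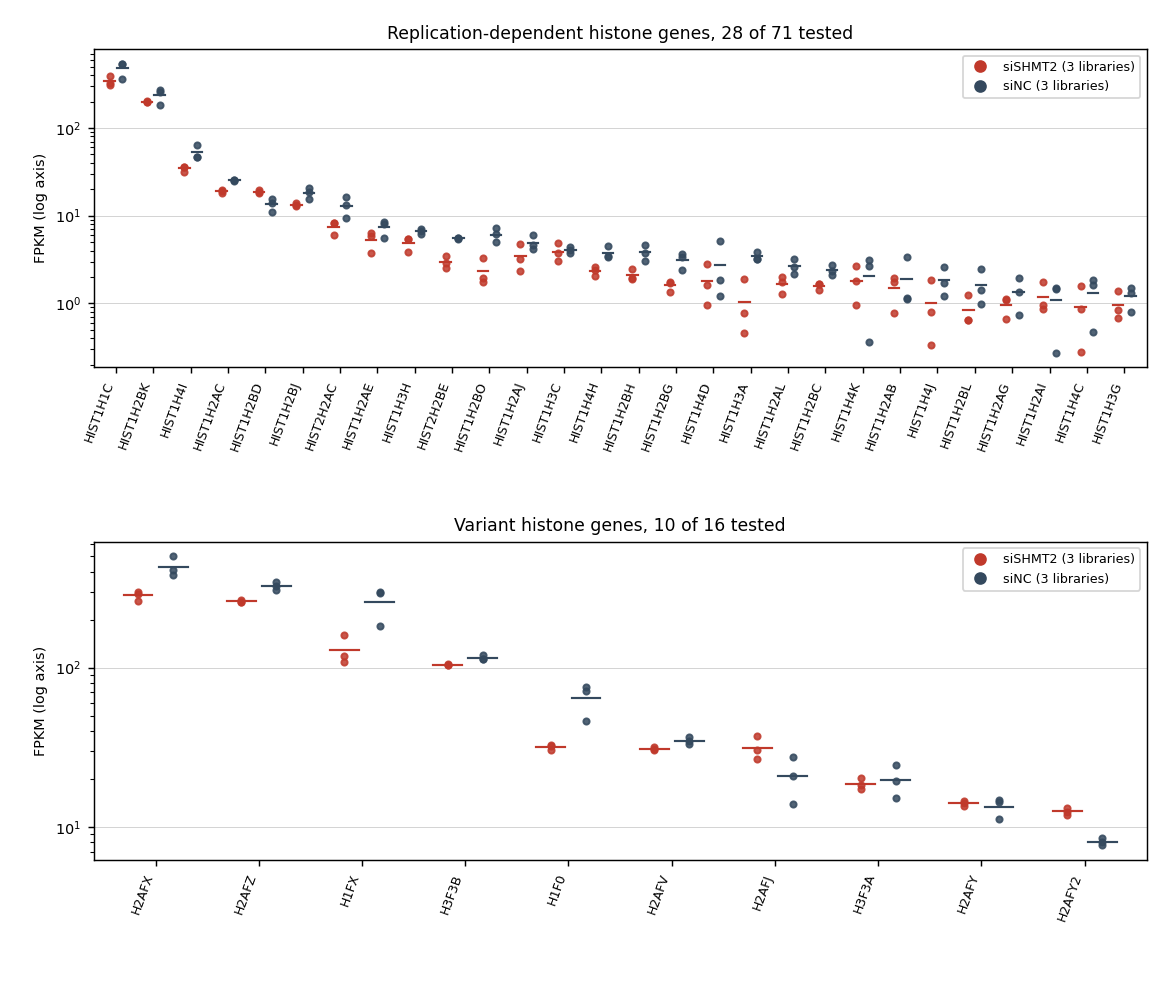
FPKM per library (vertical axes, log scale) of the 28 replication-dependent (top) and 10 variant (bottom) genes tested, ordered by mean level, with siSHMT2 points left of siNC points and a short line at each group mean. HIST1H1C and HIST1H2BK stand far above the other replication-dependent genes, and in HIST1H2BD, HIST1H2AI, H2AFJ, H2AFY and H2AFY2 the siSHMT2 mean lies above the siNC mean.

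Below the filter, the 4 replication-dependent genes with the highest means are given as values. HIST1H3B had 0.493, 0.238 and 0.625 FPKM in the siSHMT2 libraries, against 1.36, 2.18 and 1.004 FPKM in the siNC libraries, from 11 reads in siSHMT2 and 36 in siNC cells. HIST1H3F had 1.52, 1.03 and 0.462 FPKM in the siSHMT2 libraries, against 0.278, 1.51 and 0.464 FPKM in the siNC libraries. HIST2H2AA3 had 0.909, 0.989 and 0.346 FPKM in the siSHMT2 libraries, against 0.729, 1.51 and 0.579 FPKM in the siNC libraries, and it has a near-identical copy, HIST2H2AA4, with which it may share reads. Only in HIST1H3B of these 3 were the groups apart. HIST1H3E had 0.745, 0.585 and 0.661 FPKM in the siSHMT2 libraries, against 0.981, 0.721 and 0.972 FPKM in the siNC libraries, with 1 siSHMT2 library above 1 siNC library. All 43 replication-dependent genes that were not tested summed to 9.703, 8.66 and 12.6 in the siSHMT2 libraries, against 12.1, 16.5 and 12.9 in the siNC libraries, as FPKM, which is 74.7% of siNC. Of the variants below the filter, H3F3C had 0.056, 0.0541 and 0.397 FPKM in the siSHMT2 libraries, against 0.154, 0.062 and 0.570 FPKM in the siNC libraries and H2AFB3 had 1 read in each of 3 libraries. H1FOO, H1FNT, H2AFB1 and H2AFB2 had no reads, and the first of these is known as the oocyte linker histone.

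H2A and H2B genes of the clusters often stand head to head around a shared promoter. There were 11 such pairs with a gap of 218 to 330 bases, and 5 had both genes tested. In HIST2H2AC and HIST2H2BE, whose promoter window is shown above, the log2 fold changes were -0.70 and -0.72 (limma adjusted p = 0.0483 and 0.00465). In HIST1H2AC and HIST1H2BC they were -0.41 and -0.39 (0.0237 and 0.0543), and in HIST1H2AE and HIST1H2BG -0.40 and -0.67 (0.229 and 0.0213). HIST1H2AG and HIST1H2BJ had -0.23 and -0.41 (0.496 and 0.0617). HIST1H2AI and HIST1H2BL were the 1 pair with opposite signs, at 0.12 and -0.49, on 56 and 58 reads. Levels within a pair could be far apart: HIST1H2BK averaged 218 FPKM over the 6 libraries beside 0.466 FPKM for HIST1H2AH. HIST1H2BO averaged 4.22 FPKM beside HIST1H2AM with no reads. However, HIST1H2AM shares 346 of its 393 exonic bases with HIST1H3J, and how reads over shared bases were counted is not given.

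**Figure D4:**
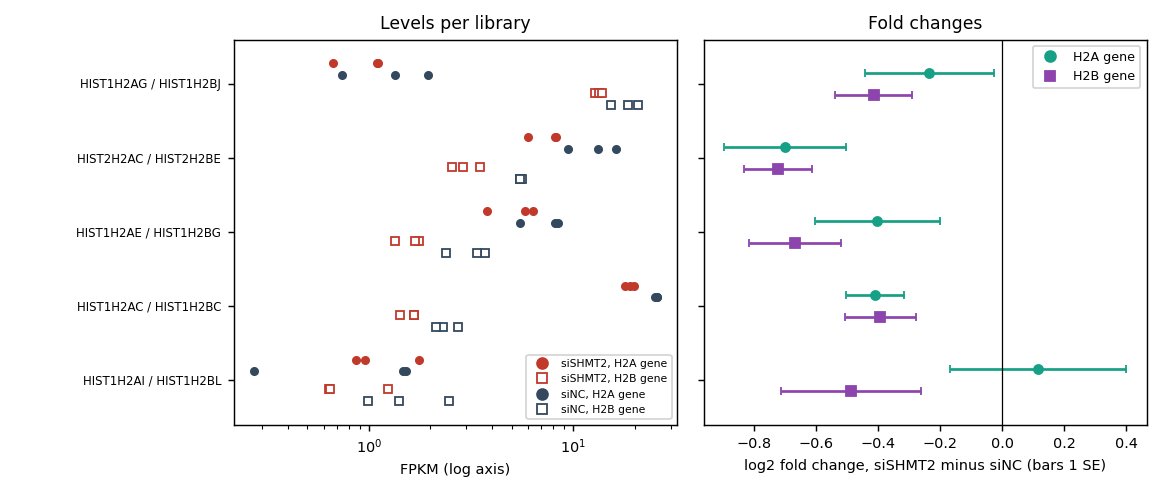
The 5 head-to-head H2A and H2B pairs with both genes tested: FPKM per library on a log axis (left; siSHMT2 red above siNC grey, H2A filled circles, H2B open squares) and log2 fold changes, siSHMT2 minus siNC with 1 SE (right). Both genes lie below 0 in 4 pairs, and in HIST1H2AI / HIST1H2BL the H2A gene lies above 0.

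The calls were spread over the clusters. Of all genes tested, 9.85% were called lower. Replication-dependent genes lie on chromosome 6 (55 genes), chromosome 1 (15) and chromosome 12 (1). On chromosome 6 the block at chr6:25726132-26285638 had 34 genes, 14 of them tested and 5 called lower, with a median log2 fold change of -0.40. The block at chr6:27125897-27893843 had 21 genes, 12 tested and 2 called lower, with a median of -0.43. Both tested genes on chromosome 1, HIST2H2AC and HIST2H2BE, were called lower.

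The tested replication-dependent genes were also grouped by the sequence features given above. The share called lower among all genes tested, 9.85%, stands beside each count below. The 14 genes with TTTGCAT in the promoter window had a median of -0.43 and 6 lower calls, and the 13 without it had -0.39 and 3. The 20 genes with TATAAA had a median of -0.41 and 6 lower calls, and the 7 without it had -0.47 and 3. For CCAAT the 23 genes with it had -0.41 and 8 lower calls, and the 4 without it -0.42 and 1. The 11 whose model runs more than 50 bases past the stem-loop had 6 lower calls and a median of -0.41, with a median of 582 reads per gene over the 6 libraries. The 10 with no 3′ UTR annotated had 3 lower calls and a median of -0.45, on a median of 120.5 reads. The 4 whose models with a stem-loop all end within 50 bases of it, HIST1H2BD, HIST1H2BL, HIST1H4J and HIST1H2AI, had 0 lower calls by limma and a median of -0.19, on a median of 57 reads. HIST1H2BD also has a longer 3′ UTR of 384 bases annotated. The 9 genes called lower had a median of 582 reads and the 19 not called a median of 160, and the part of read number in which genes were called was not tested.

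Genes that make, process and decay histone messages were mostly not called. Of 28 listed, 23 were tested, and limma called 0 lower and 1 higher, beside 9.85% and 6.07% of all genes. At an unadjusted p under 0.05, 2 were lower and 2 higher, and voom called 1 lower (CPSF4) and 1 higher. For the unadjusted p and for voom the shares of all genes are not given here. The median log2 fold change was -0.03. LSM1, a subunit of the ring that binds the ends of messages due for decay, had 13.1 ± 0.835 FPKM in siSHMT2 cells and 7.56 ± 0.638 FPKM in siNC cells (SD, n = 3 each) and rose (log2 fold change 0.72, SE 0.101, limma adjusted p = 0.00326). CPSF4, a cleavage and polyadenylation subunit, had a log2 fold change of -0.46 (adjusted p = 0.057), SRRT, which links the RNA cap to 3′ end processing, -0.37 (0.121), and CCNE1, a cyclin of the entry into S phase, 0.27 (0.148), none of them called by limma on FPKM. SLBP and NPAT, the activator of histone gene transcription, are added here after their values were seen. SLBP had 40.4, 45.6 and 40.3 FPKM in the siSHMT2 libraries, against 63.2, 51.5 and 42.8 FPKM in the siNC libraries (log2 fold change -0.30, SE 0.154, limma adjusted p = 0.246), with overlapping groups. NPAT had a log2 fold change of -0.12 (limma adjusted p = 0.531).

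Among histone chaperones, importers and exchange factors, 26 of 31 listed were tested, with 6 called lower, beside 9.85% of all genes, and 3 higher, beside 6.07%, and a median of -0.00. HAT1, the acetyltransferase that marks newly made H4, had 1.14, 1.46 and 1.15 FPKM in the siSHMT2 libraries, against 9.24, 5.69 and 7.68 FPKM in the siNC libraries. The groups were far apart, at 16.5% of siNC (log2 fold change -1.91, SE 0.161, limma adjusted p = 0.000421). SUPT16H, the large subunit of the FACT chaperone, averaged 10.4 ± 1.02 FPKM in siSHMT2 cells and 20.6 ± 0.452 FPKM in siNC cells (SD, n = 3 each) and fell (log2 fold change -0.92, SE 0.102, limma adjusted p = 0.00129). HJURP, the chaperone of the centromeric H3 variant CENPA, fell by 0.77 (limma adjusted p = 0.00315). CENPA itself, which the name rule leaves out and which is added after its values were seen, fell by 0.63 (limma adjusted p = 0.026). The call of CENPA was lost on TPM (adjusted p = 0.112), on FPKM from read sums (0.0748), with no filter (0.0983), with the replicate block (0.0566) and in 5 of 6 fits that left out 1 library (0.0512 to 0.111). SPTY2D1, an H3 and H4 chaperone, rose by 0.59 (limma adjusted p = 0.00839).

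Genes of S phase and DNA replication, the phase in which replication-dependent histones are made, were called lower in 2 of 40 tested and higher in 0 by limma, with a median of -0.04. Both shares lay below those of all genes (9.85% lower and 6.07% higher). At an unadjusted p under 0.05, 3 were lower and 6 higher, and voom called 2 lower and 1 higher (GINS2), with no shares of all genes given here for these settings. RRM2, a ribonucleotide reductase subunit, averaged 6.07 ± 0.107 FPKM in siSHMT2 cells and 17.7 ± 0.549 FPKM in siNC cells (SD, n = 3 each). CDC6, which loads the replicative helicase, averaged 8.20 ± 0.817 FPKM in siSHMT2 cells and 12.2 ± 1.301 FPKM in siNC cells (SD, n = 3 each) (limma adjusted p = 0.0217). The 2 lower calls were these 2 genes. That of CDC6 was lost on TPM (adjusted p = 0.119), on FPKM from read sums (0.0640), with no filter (0.0665) and without siSHMT2 replicates 1 and 3 (0.108 and 0.0936). GINS2, a helicase subunit, had a log2 fold change of 0.43 (limma adjusted p = 0.0541) and POLE2, a subunit of DNA polymerase epsilon, 0.32 (0.0709). By limma GINS2 was called higher on TPM (adjusted p = 0.0292), on FPKM from read sums (0.0261), under a filter at 5 FPKM (0.0477), with array weights (0.0372) and without siNC replicate 3 (0.0437).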

How the data were processed

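RNA-seq of 6 LX2 libraries was used, 3 siSHMT2 and 3 siNC, grouped by their titles. The authors deposited FPKM values for 60623 genes. HISAT2 2.0.5 and featureCounts 1.5.0-p3 are named in the submitters' processing notes, with the build hg18. The table's coordinates did not bear out hg18: 99.8% of 58516 identifiers shared with GENCODE 29 (GRCh38) overlapped there, and 79.5% were identical. Strand use and the handling of reads with several matches are not given in the sources used here.

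In every library FPKM times gene length gave whole multiples of 1 step (100% of values within 0.02), from which reads were recovered. Scaling totals used for FPKM lay between 0.957 and 1.13 of these read sums. By library they were 1.08, 1.13 and 1.05 of the sums in siSHMT2, against 1.12, 0.957 and 1.02 in siNC. A lower total gives a higher FPKM for the same reads. PCR copies were not told apart from molecules, so read numbers may hold such copies and are not counts of molecules.

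Genes with a mean of at least 1 FPKM were tested with limma 3.58.1 in R 4.3.3. Values entered as log2(FPKM + 1), the moderation followed an intensity trend, and p-values were adjusted by Benjamini-Hochberg across 10865 genes (threshold 0.05). The code was tested on simulated data. Alternatives covered the pseudocount, filter, scaling, limma voom on recovered reads, trend, library weights, a replicate block and leaving out each library. The median SD between replicates was 0.105 in siSHMT2 and 0.191 in siNC cells on the log2 scale.

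The members and gene lists were chosen with earlier results of these data known. The rule for names took SHMT2, every tested histone gene, the 4 highest untested ones of each class, and the 4 genes with the smallest adjusted p of each companion list. Whether replicate numbers pair the samples could not be settled (see the closing section), and the main fit did not use them. Sequences came from GENCODE 29 and RefSeq tables.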

Additional observations from a re-analysis of the deposited data

How the results depend on the processing

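Of 548 refits of single histone genes, 447 kept their direction and their side of the threshold, 57 lost a call, 21 gained one and 23 turned sign. All 23 were in genes that limma did not call. Replication-dependent genes: 9 were lower with all libraries, but 3 under a filter at 5 FPKM, 2 with no filter (both filters change the genes tested), 17 with array weights, and 2 to 11 with 1 library left out. The number higher was 1 under a filter at 5 FPKM, on TPM, on FPKM from read sums and with array weights, and 0 to 1 with 1 library left out. Their median was -0.19 with no filter and -0.53 to -0.41 with 1 library left out. Variants: 0 were lower with no filter, 5 with array weights and 0 to 3 with 1 library left out; 2 were higher on TPM and with array weights. Their median was -0.12 with no filter, -0.061 on TPM, -0.076 on FPKM from read sums, -0.21 with array weights and -0.21 to -0.12 with 1 library left out. All genes: 618 were lower under a filter at 5 FPKM, 333 higher and 603 lower with no filter, 620 lower on TPM, 1827 higher and 1976 lower with array weights, and 228 to 731 higher and 502 to 1124 lower with 1 library left out. TPM moved the median of all genes to 0.11, against 0.018 on FPKM. Voom was run with the totals behind the FPKM as library sizes, chosen after seeing the data, and the planned TMM factors were not run. The cause of the other shifts was not tested.

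Signs turned in HIST1H4K with a pseudocount of 0.1 (0.15), on TPM (0.16), on FPKM from read sums (0.056) and by voom on recovered reads (0.20), and in H3F3A on TPM (0.041) and FPKM from read sums (0.023). Array weights turned HIST1H3C (0.021), HIST1H4D (0.42), HIST1H2AB (0.21), HIST1H2AI (-0.25) and HIST1H3G (0.22). With 1 library left out the values ran from -0.034 to 0.15 for H2AFY, -0.21 to 0.11 for H3F3A, -0.34 to 0.17 for HIST1H2AB, -0.21 to 0.28 for HIST1H2AI, -0.22 to 0.051 for HIST1H3C, -0.62 to 0.10 for HIST1H4D and -0.51 to 0.28 for HIST1H4K.

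The labels number replicates 1 to 3 in both groups. Deviations of same-numbered libraries correlated at -0.02, -0.35 and 0.24, and those of other-numbered libraries at -0.48 to 0.50. With deviations taken from each group's own mean over 3 libraries, these values cannot settle whether the numbers pair the samples. With the replicate block, 5 replication-dependent genes were lower, and 374 genes were higher and 696 lower in all. Replication-dependent genes with few reads limit what could be called: 34 had reads but lay below the filter.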

Other observations

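The words GACTTTA and ACTTTAA were picked on fold changes of these same data, and their counts are a description with no test. Of 26 tested histone genes with a 3′ UTR of at least 50 bases, 2 held either word (H1F0 and HIST1H4H), against 24.6% of 9386 tested coding genes, whose 3′ UTR lengths were not matched to these. The processed copy H3F3AP6 had 2.43, 2.05 and 2.62 FPKM in siSHMT2 cells, against 4.45, 4.70 and 3.56 FPKM in siNC cells, from 14 to 17 and 23 to 32 reads per library. Its groups did not overlap, and it was not among the genes chosen by name.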
